A study of Mus musculus with 16 samples.

Results

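The 9 genes described here encode cell-surface receptors that steer leukocytes: the chemokine receptors Ccr1, Ccr2, Ccr3, Cxcr3 and Cxcr4, the chemokine-receptor-like Ccrl2, the formyl peptide receptors Fpr1 and Fpr2, and the chemerin receptor Cmklr1. They were taken by symbol from the 35275 genes of a count table of mouse bone-marrow macrophages, and each symbol matched 1 row. All 9 passed the filter on low counts that left 13080 genes to test.

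The cells came from tibial marrow of C57BL/6 mice and were driven to macrophages with colony-stimulating factor 1 in 15% serum, with 12 ng/ml during the first 24 hours and 120 ng/ml during the next 48. Serum was then withdrawn for about 12 hours before the treated groups got 10 ng/ml of TGF-β1, a duration of 4 hours. The control genotype was Smad7 fl/fl, called fl/fl below, and the other was CAGGCre-ER;Smad7 fl/fl, called KO below, in which a globally expressed, tamoxifen-inducible Cre deletes the floxed Smad7. Both genotypes received tamoxifen at 20 mg/kg for 5 days at an age of 1 month and were sacrificed 2 weeks later, so the controls carried the floxed alleles and the drug but not the Cre. Each of the 4 groups (fl/fl untreated, fl/fl TGF-β1, KO untreated, KO TGF-β1) had 4 libraries of polyadenylated RNA. The labels do not say whether these came from separate animals, so p-values measure the spread between these samples, which may be technical. The labels' extraction protocol speaks of 8 cDNA libraries, against 16 labelled samples.

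Chemokine receptors are G-protein-coupled receptors that turn a gradient of chemokine into directed movement through inhibitory G proteins, and kinases of the GRK family and arrestins switch them off. Cxcr4 binds Cxcl12 and holds haematopoietic cells in the marrow, Ccr2 binds Ccl2 and brings monocytes out of it, and Ccr1 and Ccr3 read inflammatory CC chemokines. Formyl peptide receptors sense N-formylated peptides from bacteria and mitochondria, and Smad7 is an inhibitory Smad that TGF-β induces and that dampens the TGF-β response.

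The promoters of the 4 receptors that passed the test for TGF-β1 in fl/fl cells with all 16 libraries are shown first, because their levels there moved in opposite directions: Cxcr4 rose, while Ccr3, Fpr1 and Ccr1 fell. Ccr1 was not called in KO cells in the same fit. Each window runs from 250 bases before to 50 bases after the RefSeq start of the gene (build GRCm38.p6), printed 5′ to 3′ on the gene's strand. Capitals mark matches, on either strand, to 4 short motifs. The Smad box was searched as CAGAC. The Ets-type core, of the kind bound by PU.1, was searched as GAGGAA. For the GC box the letters were GGGCGG. For the TATA box they were TATAAA. No match overlapped one of another motif.
Cxcr4, chr1:128592250-128592549, minus strand: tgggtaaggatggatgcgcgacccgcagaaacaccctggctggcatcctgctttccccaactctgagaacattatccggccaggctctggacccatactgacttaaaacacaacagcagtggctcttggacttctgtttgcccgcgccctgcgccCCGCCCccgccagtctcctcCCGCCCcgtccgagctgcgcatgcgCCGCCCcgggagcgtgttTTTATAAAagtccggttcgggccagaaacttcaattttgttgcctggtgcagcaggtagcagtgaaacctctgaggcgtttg
Ccr3, chr9:124021721-124022020, plus strand: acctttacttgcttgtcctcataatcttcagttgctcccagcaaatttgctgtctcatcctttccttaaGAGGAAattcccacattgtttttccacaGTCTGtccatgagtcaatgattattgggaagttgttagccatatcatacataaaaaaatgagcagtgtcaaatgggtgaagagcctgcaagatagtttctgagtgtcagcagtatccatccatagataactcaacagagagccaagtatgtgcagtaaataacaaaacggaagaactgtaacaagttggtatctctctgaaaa
Fpr1, chr17:17883890-17884189, minus strand: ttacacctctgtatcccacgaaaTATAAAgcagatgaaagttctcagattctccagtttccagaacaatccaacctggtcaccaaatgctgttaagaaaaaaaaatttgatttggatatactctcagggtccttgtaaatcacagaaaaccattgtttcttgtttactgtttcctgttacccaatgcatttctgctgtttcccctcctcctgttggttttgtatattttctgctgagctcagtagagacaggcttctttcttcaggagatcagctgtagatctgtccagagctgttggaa
Ccr1, chr9:123968643-123968942, minus strand: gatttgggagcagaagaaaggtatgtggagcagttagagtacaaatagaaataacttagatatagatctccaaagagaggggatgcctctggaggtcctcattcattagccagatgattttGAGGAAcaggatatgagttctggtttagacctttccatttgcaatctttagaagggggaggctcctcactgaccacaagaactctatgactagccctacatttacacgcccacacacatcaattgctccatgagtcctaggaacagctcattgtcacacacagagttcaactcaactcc

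The Cxcr4 window held 3 GC boxes, whose first bases lay 95, 75 and 50 bases before the start, and a TATA box whose first base lay 30 bases before it, overlapped by its reverse complement at 32 bases. The Ccr3 window held 1 Smad box, at 153 bases, and 1 Ets-type core, at 181 bases. The Ccr1 window held an Ets-type core at 129 bases, and the Fpr1 window a TATA box far upstream, at 227 bases. Among all 32851 RefSeq promoter windows of 300 bases, 49.6% held the Smad box, 28.3% the Ets-type core, 35.7% the GC box and 13.6% the TATA box, so these are common letters. A match describes the sequence and is not a binding site.

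The genes lie in few places (mm10, coordinates of the deposited table). Ccr1 (ENSMUSG00000025804, chromosome 9, 123962126 to 123968692, minus strand), Ccr3 (ENSMUSG00000035448, 124021971 to 124031689, plus strand) and Ccr2 (ENSMUSG00000049103, 124101950 to 124113557, plus strand) are in the same cluster of chemokine receptor genes, and Ccrl2 (ENSMUSG00000043953, 111054835 to 111057270, minus strand) is elsewhere on chromosome 9. Fpr1 (ENSMUSG00000045551, chromosome 17, 17876471 to 17883940, minus strand) and Fpr2 (ENSMUSG00000052270, 17887824 to 17893952, plus strand) are neighbours. Cxcr4 (ENSMUSG00000045382) is on chromosome 1 from 128588199 to 128592293, minus strand. Cxcr3 (ENSMUSG00000050232) is on chromosome X from 101731535 to 101734269, minus strand, and Cmklr1 (ENSMUSG00000042190) on chromosome 5 from 113612354 to 113650426, minus strand. Several have close paralogs, such as the other genes of the Fpr family, and how reads shared between paralogs were counted is not stated. Fpr2 overlaps Fpr3, which had 0 counts in every library, and Cmklr1 overlaps the non-coding Gm15736.

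Total counts per library ran from 16865591 to 23741079. The library labelled KO untreated replicate 1 went against its label: Pmepa1, a direct TGF-β target, was at 320 CPM (TMM-scaled CPM, the count relative to the scaled library total) there, against 1.69 to 2.73 in the other 3 KO untreated libraries and 292 to 343 in KO TGF-β1, and Skil, another target, was at 655 CPM against 110, 129 and 157. Its Smad7 was 5.87 CPM, against 1.28, 1.64 and 2.00 in the other 3; in fl/fl, Smad7 was 3.89 to 6.03 CPM untreated and 37.3 to 58.3 with TGF-β1, and in KO TGF-β1 it was 10.3 to 19.7. Every result that uses this library is therefore given with and without it. Fl/fl TGF-β1 replicate 4 had the fewest genes detected, 14915 against 15834 to 17195 elsewhere. The macrophage genes Csf1r and Emr1 (F4/80) were at 3964 to 6733 and 1076 to 1605 CPM. The lists of eosinophil, basophil and mast cell, and lymphoid markers were low: the summed eosinophil list reached at most 0.664 CPM (Il5ra and Ear6 at 0), basophil and mast cell genes 0.886 CPM (Mcpt8, Fcer1a and Prss34 at 0) and lymphoid genes 1.39 CPM (Cd3e and Ncr1 at 0). Other lists had higher sums: over the 16 libraries the dendritic list summed to 74.4 to 164 CPM (mostly Bst2, at 68.9 to 160 CPM). The rest of the dendritic list had few counts per library: Flt3 0 to 12, Zbtb46 0 to 18, Cd209a 0 to 3 and Ccr9 0 to 15. Siglech had 1 to 44, Clec9a 8 to 48 and Itgax 16 to 63. Neutrophil genes summed to 34.8 to 73.6 CPM, mostly Mmp8, at 580 to 1367 counts per library. S100a8 had 8 to 36 counts and S100a9 0 to 70. Monocyte genes summed to 6.46 to 51.3 CPM and stromal genes to 2.70 to 8.19 CPM. The lowest dendritic and neutrophil sums, mostly Bst2 and Mmp8, were above the highest level of Ccr1, 8.17 CPM.

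Cxcr4 was by far the most abundant of the 9 receptors per length of transcript. In fl/fl untreated macrophages its level was 56.5 ± 1.31 FPKM (SD, n = 4; fragments relative to gene length and sequencing total). Ccr2 at 14.3 ± 2.18 FPKM and Cmklr1 at 13.8 ± 1.10 FPKM came next, with ranges that overlapped each other, and then Ccrl2 at 9.06 ± 1.51 FPKM. Below a gap lay Fpr2 at 3.46, Fpr1 at 3.08, Cxcr3 at 2.40, Ccr1 at 1.89 and Ccr3 at 1.89 FPKM, where each neighbour in that order overlapped the next. With TGF-β1 the order at the bottom changed: Cxcr3, at 2.27 FPKM, stood above Fpr2 at 1.28, Fpr1 at 0.916, Ccr1 at 0.429 and Ccr3 at 0.372 FPKM. The range of Cxcr3 did not overlap that of Fpr2, while Fpr2, Fpr1, Ccr1 and Ccr3 each overlapped the next.

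**Figure D1:**
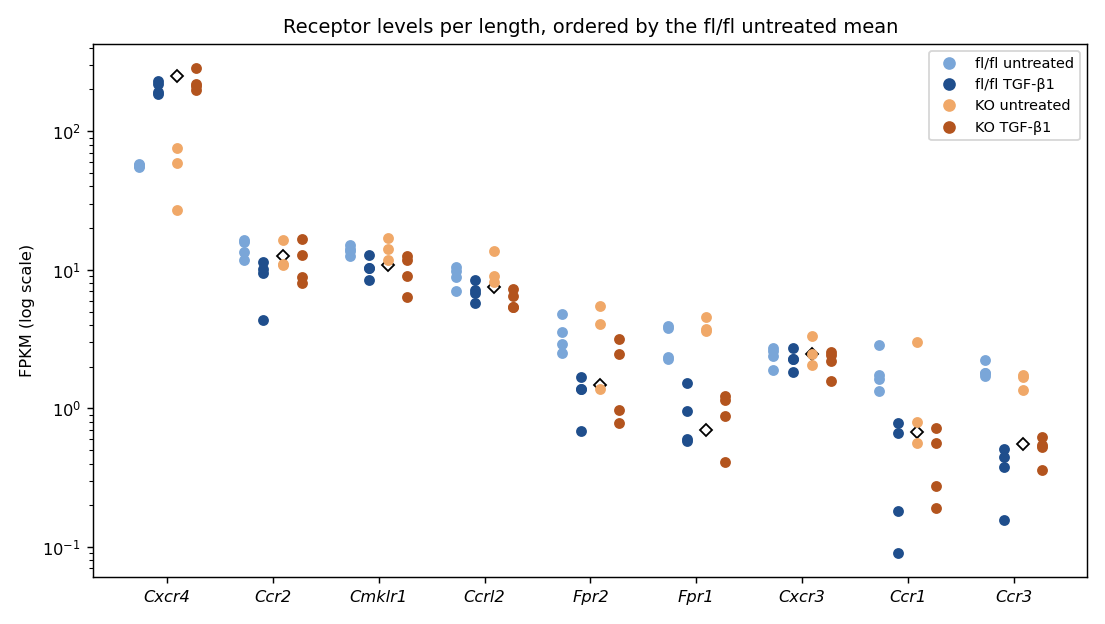
FPKM (log scale) of the 9 receptors, 1 point per library, ordered by the fl/fl untreated mean; the open diamond is the library labelled KO untreated replicate 1. Cxcr4 lies above every other receptor in all 16 libraries, and Ccr1 and Ccr3 have the lowest fl/fl group means with TGF-β1, 0.429 and 0.372 FPKM.

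Cxcr4 rose so far that it came to dominate the set. Its share of the summed FPKM of the 9 receptors was 51.2%, 51.2%, 55.6% and 54.6% in the fl/fl untreated libraries and 84.9%, 85.4%, 87.0% and 89.3% in the fl/fl TGF-β1 libraries. In KO untreated replicates 2 to 4 it was 31.6%, 63.3% and 54.5%, and in KO TGF-β1 it was 85.7% to 89.4%. The other 8 receptors together summed to 45.6 to 54.3 FPKM in fl/fl untreated and 27.7 to 33.0 FPKM in fl/fl TGF-β1 libraries. The library labelled KO untreated replicate 1 had a Cxcr4 share of 87.1% and 36.8 FPKM in the other 8.

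The first comparison asks which receptors respond to TGF-β1 in macrophages that keep Smad7. In fl/fl cells 1 of the 9 receptors rose, Cxcr4, and 3 fell, Ccr3, Ccr1 and Fpr1 (edgeR's quasi-likelihood test, Benjamini-Hochberg adjusted p under 0.05 over all tested genes). Of all 13080 genes tested, 7.87% were called higher and 7.61% lower in this comparison. Of the 9 receptors, 11.1% rose and 33.3% fell; the first share is a single gene. The median log2 fold change was -0.64 over the 9 receptors and -0.01 over all tested genes. In bulk RNA, fewer cells of a type and less RNA per cell cannot be told apart.

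Cxcr4, the receptor for Cxcl12, was at 103, 103, 104 and 98.8 CPM in fl/fl untreated and at 353, 370, 406 and 421 CPM in fl/fl TGF-β1 libraries. The groups were far apart and the untreated libraries almost level. The log2 fold change was 1.92 ± 0.46 (SE), a 3.79-fold rise, with an edgeR adjusted p of 0.011. Cxcr4 stayed past the threshold in 26 of 26 alternative settings, with adjusted p up to 0.0346.

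Ccr3, a receptor for eotaxins best known from eosinophils, fell from an already low level. It was at 5.98, 7.28, 5.60 and 5.93 CPM in fl/fl untreated and at 1.76, 1.31, 1.49 and 0.521 CPM in fl/fl TGF-β1 libraries. Its highest treated library lay well below its lowest untreated one. Its log2 fold change was -2.29 ± 0.36, with an edgeR adjusted p of 8.76e-04, and it passed in 26 of 26 alternatives. The counts behind these values were 100 to 141 untreated and 10 to 31 with TGF-β1. The eosinophil markers given above stayed below 1 CPM in sum in every library.

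Ccr1, a receptor for Ccl3, Ccl5 and related chemokines, also fell. It was at 4.97, 4.60, 3.78 and 8.12 CPM in fl/fl untreated and at 0.546, 1.99, 2.26 and 0.261 CPM in fl/fl TGF-β1 libraries, with no overlap but a wide spread within each group. Its log2 fold change was -2.07 ± 0.62 (edgeR adjusted p = 0.0305). This call depended on single libraries: the adjusted p of Ccr1 was 0.0589 without fl/fl untreated replicate 1, 0.0501 without fl/fl untreated replicate 2, 0.0871 without fl/fl untreated replicate 4, 0.0874 without fl/fl TGF-β1 replicate 1 and 0.0854 without fl/fl TGF-β1 replicate 4. Without the library labelled KO untreated replicate 1, which adds to the shared estimate of spread, it was 0.0185.

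Fpr1, the high-affinity formyl peptide receptor, was at 5.09, 5.18, 3.08 and 2.99 CPM in fl/fl untreated and at 1.34, 2.14, 0.818 and 0.782 CPM in fl/fl TGF-β1 libraries. Every treated library was below every untreated one. Its log2 fold change was -1.68 ± 0.48 (edgeR adjusted p = 0.0243). The adjusted p of Fpr1 was 0.0736 and 0.0659 without fl/fl untreated replicates 1 and 2, and 0.0537, 0.0747 and 0.0757 without fl/fl TGF-β1 replicates 1, 3 and 4. Without the library labelled KO untreated replicate 1 it was 0.00264, and from there it passed in 15 of 15 fits that left out a further library.

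Fpr2 and Ccr2 did not pass the test in fl/fl cells. Their groups did not overlap, a description only, since the share of all tested genes like this was not counted. Both passed once same-numbered libraries of a genotype were treated as pairs, a pairing read from the data. Fpr2, a promiscuous receptor for formylated peptides and lipid and protein ligands, was at 4.07, 5.47, 2.82 and 3.32 CPM untreated and at 2.00, 1.67, 1.59 and 0.782 CPM with TGF-β1. Its log2 fold change was -1.37 ± 0.51 (edgeR adjusted p = 0.0778), and -1.39 ± 0.27 with the replicate block within genotype (edgeR adjusted p = 0.00397). Ccr2, the receptor for Ccl2, was at 88.1, 85.8, 71.4 and 62.7 CPM untreated and at 53.6, 57.7, 62.2 and 23.7 CPM with TGF-β1, the last being replicate 4. Its log2 fold change was -0.64 ± 0.25 (adjusted p = 0.103), and -0.39 (adjusted p = 0.237) without fl/fl TGF-β1 replicate 4. With the block Ccr2 had a log2 fold change of -0.72 ± 0.17 (edgeR adjusted p = 0.0132). The block thus called 1 receptor higher and 5 lower in fl/fl cells, against 7.72% of all tested genes called higher and 9.05% lower (the same 6 receptors without the library labelled KO untreated replicate 1, against 9.94% and 11.2%). The block was added after seeing the data, and the labels do not state the pairs. It was not fitted without any fl/fl library, so its call on Ccr2 was not checked without fl/fl TGF-β1 replicate 4.

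The remaining 3 receptors overlapped between the groups in fl/fl cells. Cmklr1, which binds chemerin, was at 39.9 ± 3.08 CPM untreated and 31.2 ± 4.53 CPM with TGF-β1 (SD, n = 4 each), a log2 fold change of -0.36 ± 0.19 (edgeR adjusted p = 0.254). Ccrl2, which presents chemerin without signalling, was at 19.2 ± 3.29 and 15.4 ± 2.68 CPM, a log2 fold change of -0.31 ± 0.19 (edgeR adjusted p = 0.322). Cxcr3, best known from T cells, was at 4.16 ± 0.639 and 4.08 ± 0.656 CPM, a log2 fold change of -0.03 ± 0.22 (edgeR adjusted p = 0.95). The interval of 2 SE around the Cxcr3 value ran from -0.47 to 0.41, so a change of that size could not be told from none.

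**Figure D2:**
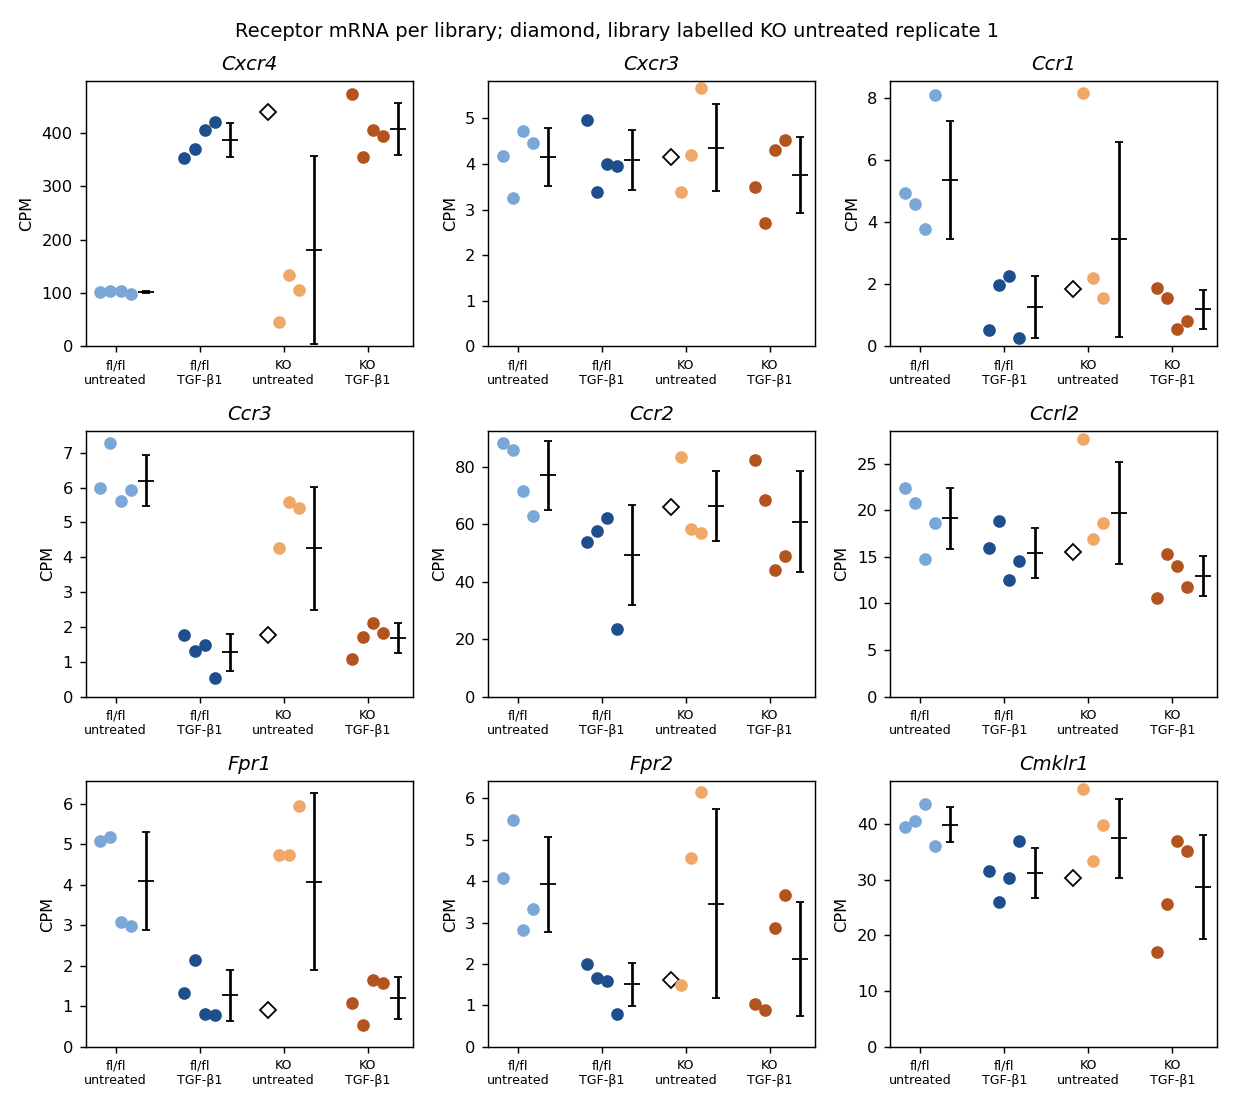
CPM of each receptor in each library (points, replicates 1 to 4 from left to right) with the group mean and SD over 4 libraries beside them; the open diamond is the library labelled KO untreated replicate 1. For Cxcr4, Ccr3 and Fpr1 the diamond sits with the TGF-β1 libraries, at 439, 1.77 and 0.907 CPM.

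The second comparison asks for the same response in KO cells. With all 16 libraries, 2 receptors fell in KO cells, Ccr3 and Fpr1, and none rose, against 2.19% of all tested genes called higher and 2.97% lower. Without the library labelled KO untreated replicate 1, Cxcr4 rose and Ccr3, Fpr1 and Ccrl2 fell, against 8.17% of 13335 genes called higher and 6.7% lower. In the same fit the fl/fl comparison called the same 4 receptors as with all libraries, against 8.71% of genes called higher and 9.02% lower. The median log2 fold change in KO was -0.61 over the 9 receptors and -0.03 over all genes, and -0.67 and -0.01 without that library. With the replicate block within genotype Cxcr4 rose and Ccr3, Fpr1 and Ccrl2 fell in KO cells with all 16 libraries as well as without that library, against 3.92% of genes called higher and 3.68% lower with all 16, and 9.42% and 7.56% without it.

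Cxcr4 shows most clearly how much that library weighs. It was at 439 CPM in the library labelled KO untreated replicate 1 and at 46.4, 134 and 105 CPM in replicates 2 to 4. In KO TGF-β1 it was at 474, 355, 406 and 394 CPM. With all libraries the log2 fold change was 1.17 ± 0.45 (edgeR adjusted p = 0.168; 1.64 ± 0.36 and 0.0283 with the block), and without replicate 1 it was 2.12 ± 0.24, a 4.36-fold rise (edgeR adjusted p = 3.18e-06). In the latter fit, leaving out any further library kept Cxcr4 past the threshold, in 15 of 15 fits, with log2 fold changes from 1.80 to 2.46.

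Ccr3 was at 4.26, 5.58 and 5.41 CPM in KO untreated replicates 2 to 4, at 1.77 CPM in the library labelled replicate 1, and at 1.08, 1.72, 2.1 and 1.84 CPM in KO TGF-β1. The single low untreated library is within the treated range, and the other 3 are above it. Its change on the log2 scale was -1.33 ± 0.35 with all libraries (edgeR adjusted p = 0.0381) and -1.57 ± 0.30 without that library (edgeR adjusted p = 0.00108). With all 16 libraries the call on Ccr3 was kept in only 3 of 16 fits that left out 1 library, those without fl/fl TGF-β1 replicate 1, fl/fl TGF-β1 replicate 4 or KO untreated replicate 1, and the adjusted p reached 0.144. From the 15 libraries it was kept in 15 of 15.

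Fpr1 was at 4.73, 4.74 and 5.94 CPM in KO untreated replicates 2 to 4, at 0.907 CPM in the library labelled replicate 1, and at 1.08, 0.540, 1.66 and 1.57 CPM in KO TGF-β1. Apart from that library the groups did not overlap. The log2 fold change was -1.75 ± 0.48 with all libraries (edgeR adjusted p = 0.0438) and -2.05 ± 0.38 without it (edgeR adjusted p = 7.48e-04). The 16-library call on Fpr1 was kept in 3 of 16 fits, those without fl/fl TGF-β1 replicate 2, fl/fl TGF-β1 replicate 4 or KO untreated replicate 1, with adjusted p up to 0.169. It was kept in 15 of 15 fits from the 15 libraries.

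Ccrl2 was at 27.6, 16.9 and 18.7 CPM in KO untreated replicates 2 to 4, at 15.5 CPM in the library labelled replicate 1, and at 10.5, 15.3, 14.0 and 11.8 CPM in KO TGF-β1. The untreated and treated libraries did not overlap, by a small margin. Its change on the log2 scale was -0.61 ± 0.19 with all libraries (edgeR adjusted p = 0.0759; 0.0195 with the block) and -0.67 ± 0.19 without that library (edgeR adjusted p = 0.0219). The latter call on Ccrl2 was lost on also leaving out KO untreated replicate 2, KO TGF-β1 replicate 1 or KO TGF-β1 replicate 4, with adjusted p up to 0.196.

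Ccr1 in KO cells turned on a different library. It was at 8.17 CPM in KO untreated replicate 2 but at 1.86, 2.21 and 1.58 CPM in replicates 1, 3 and 4, and at 1.88, 1.57, 0.553 and 0.806 CPM in KO TGF-β1. The log2 fold change was -1.52 ± 0.62 (edgeR adjusted p = 0.191), and -0.64 (adjusted p = 0.765) without KO untreated replicate 2. Ccr1 did not pass in edgeR without the library labelled KO untreated replicate 1 either (adjusted p = 0.0827). Among the edgeR fits that left out a further library, Ccr1 passed (adjusted p = 0.0368) only on leaving out KO untreated replicate 4.

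The other 4 receptors did not pass in KO cells in either fit. Fpr2 was split within both groups, at 1.49, 4.56 and 6.15 CPM in KO untreated replicates 2 to 4 and at 1.02, 0.883, 2.88 and 3.67 CPM in KO TGF-β1 (log2 fold change -0.92 ± 0.49, edgeR adjusted p = 0.274, without the library labelled replicate 1). Ccr2 was at 83.4, 58.2 and 57.0 CPM in those 3 libraries and at 82.3, 68.2, 44.2 and 48.7 CPM with TGF-β1 (log2 fold change -0.09 ± 0.27, edgeR adjusted p = 0.913). Cmklr1 and Cxcr3 had log2 fold changes of -0.44 ± 0.20 (edgeR adjusted p = 0.167) and -0.21 ± 0.24 (edgeR adjusted p = 0.705) in the same fit. With all 16 libraries the log2 fold changes of Fpr2, Ccr2, Cmklr1 and Cxcr3 were -0.70, -0.12, -0.38 and -0.21, with edgeR adjusted p from 0.327 to 0.907.

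**Figure D3:**
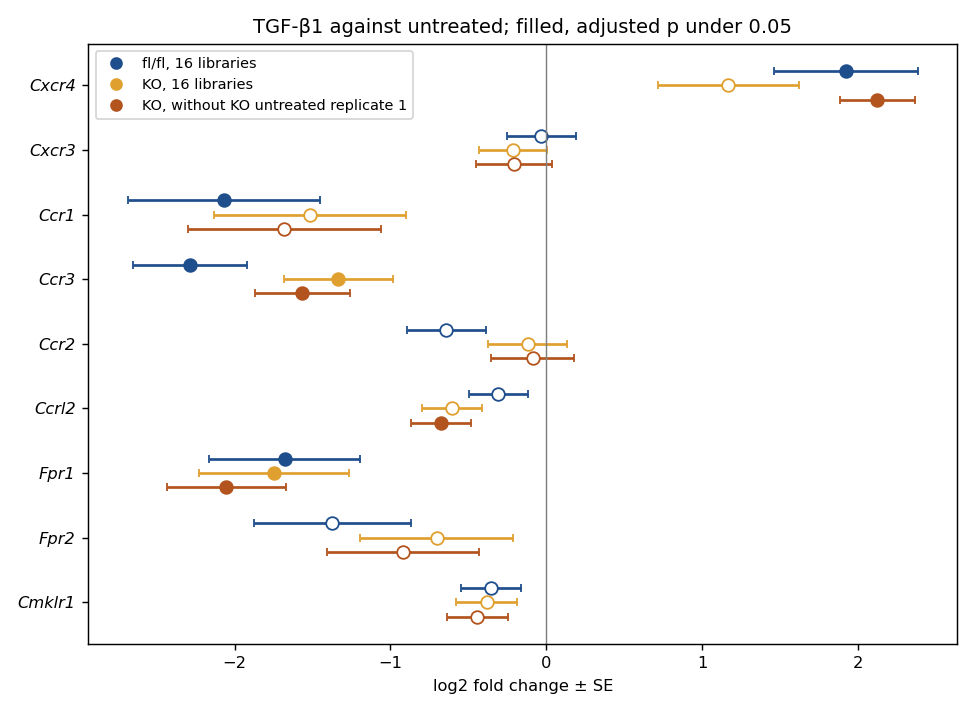
Log2 fold change of each receptor with TGF-β1 (± SE) in fl/fl cells, in KO cells, and in KO cells without the library labelled KO untreated replicate 1; filled points passed an adjusted p of 0.05. Cxcr4 is the only receptor to the right of 0, and its KO value moves from 1.17 to 2.12 when that library is left out.

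The third question is how the receptors differed between KO and fl/fl cells. Only the KO carries the Cre, so Smad7 loss and the Cre cannot be told apart here. Smad7 RNA was lower in KO cells but still counted, with a mean of 273 counts with TGF-β1 against 866 in fl/fl. No receptor passed the test between KO and fl/fl cells, either untreated or with TGF-β1, and none had an unadjusted p under 0.05 in edgeR; DESeq2 also called 0. Of all genes tested, 0.0459% were called untreated and 0.0382% with TGF-β1 (0.0975% and 0.06% without the library labelled KO untreated replicate 1). Without that library, Cxcr4 was at 102 ± 2.26 CPM in fl/fl untreated (n = 4) and 95.1 ± 44.5 CPM in KO untreated (n = 3), a log2 fold change of -0.12 with 2 SE bounds of -0.57 and 0.33. With TGF-β1 it was at 387 ± 31.4 CPM in fl/fl and 407 ± 49.4 CPM in KO cells (SD, n = 4 each; log2 fold change 0.07 ± 0.44, edgeR adjusted p = 0.989, and 0.08 ± 0.21 in the fit without that library). Over the 9 receptors the untreated differences ran from -0.64 (Ccr1) to 0.83 (Cxcr4) with all libraries and from -0.46 (Ccr1) to 0.31 (Fpr1) without it. With TGF-β1 they ran from -0.26 (Ccrl2) to 0.49 (Fpr2). For Ccr3 the untreated groups did not overlap, with 5.60 to 7.28 CPM in fl/fl and 4.26 to 5.58 CPM in KO replicates 2 to 4, but the log2 fold change of -0.30 ± 0.29 was not past the threshold (edgeR adjusted p = 0.711). In the fit without that library the 2 SE bounds of Ccr1 untreated ran from -1.64 to 0.72, so a fall or rise of that size could not be told from no change.

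**Figure D4:**
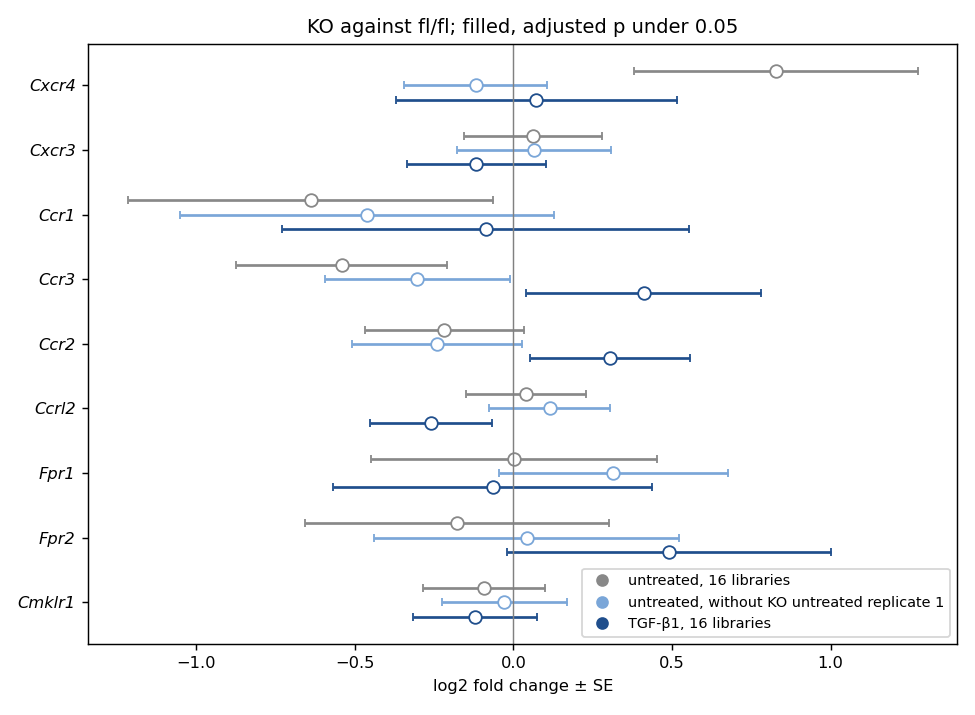
Log2 fold change of each receptor in KO against fl/fl cells (± SE), untreated with all 16 libraries, untreated without the library labelled KO untreated replicate 1, and with TGF-β1. No point is filled, that is, none passed an adjusted p of 0.05, and the Cxcr4 value in untreated cells moves from 0.83 to -0.12 without that library.

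The response to TGF-β1 was also compared directly between the genotypes, as an interaction. No receptor passed, with 0 at an unadjusted p under 0.05 in the fit with no block and 0 called by DESeq2, and 0% of all genes were called by edgeR with or without the library labelled KO untreated replicate 1. The interaction of Cxcr4 was -0.75 ± 0.63 with all libraries and 0.20 ± 0.30 without that library (log2, KO response minus fl/fl response). The value nearest the threshold with all libraries was that of Ccr3, at 0.95 ± 0.50 (unadjusted p = 0.0729, edgeR adjusted p = 0.993). Without that library it was 0.72 ± 0.42 (unadjusted p = 0.104, edgeR adjusted p = 0.981). With the replicate block within genotype the interaction of Ccr3 was 1.07 ± 0.41 (unadjusted p = 0.0231, edgeR adjusted p = 0.963) and that of Ccr2 0.57 ± 0.24 (unadjusted p = 0.0369, edgeR adjusted p = 0.963), and neither passed. The calls on Ccr1 (and, with the block, Ccr2 and Fpr2) in fl/fl cells and on Ccrl2 in KO cells are thus not shown to differ between the genotypes.

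Other genes of the pathway were read from lists of chemoattractant receptors, ligands and signalling genes. Of 34 other chemoattractant receptors, 13 were tested, and in fl/fl cells 4 rose and 3 fell. Of all genes tested there, 7.87% were called higher and 7.61% lower. Cx3cr1, the fractalkine receptor, rose from 43.7 to 68.3 CPM untreated to 509 to 697 CPM with TGF-β1, a log2 fold change of 3.51 ± 0.65 (edgeR adjusted p = 0.00258). The sphingosine 1-phosphate receptor S1pr1 and the oxysterol receptor Gpr183 rose by 1.51 ± 0.31 and 0.99 ± 0.27. Cysltr1, C5ar1 and Ptafr, receptors for cysteinyl leukotrienes, complement C5a and platelet-activating factor, fell by 1.45, 0.87 and 0.75 on the log2 scale. In KO cells with all libraries only C5ar1 passed (log2 fold change -0.72, edgeR adjusted p = 0.039), against 2.19% of all tested genes called higher and 2.97% lower. Without the library labelled KO untreated replicate 1, 4 rose and 2 fell of 15 tested, against 8.17% and 6.7% of all tested genes. C5ar1 was among those that fell, at -0.80 (edgeR adjusted p = 0.00456). Cx3cr1 was at 20.4, 59.4 and 63.9 CPM in KO untreated replicates 2 to 4 and at 422.5 to 642.5 CPM in KO TGF-β1. In the library labelled KO untreated replicate 1 it was at 368.5 CPM.

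All ligand genes that passed the test fell. Of 28 ligand genes 17 were tested, and 8 fell and 0 rose in fl/fl cells, against 7.61% of all tested genes called lower and 7.87% higher. In KO cells 6 fell and 0 rose, against 2.97% and 2.19%. Without the library labelled KO untreated replicate 1, 7 fell and 0 rose in KO cells, against 6.7% and 8.17%. The Cxcr3 ligand Cxcl10 was at 65.0 to 161 CPM in fl/fl untreated and 13.2 to 25.9 CPM in fl/fl TGF-β1 libraries, a log2 fold change of -2.40 ± 0.59 (edgeR adjusted p = 0.0128). Ccl3, a Ccr1 ligand, was at 47.8 to 60.2 and 14.0 to 22.1 CPM (log2 fold change -1.57 ± 0.39), and Ccl4 had a log2 fold change of -1.84 ± 0.46. In KO cells Cxcl10, Ccl4 and Ccl5 had log2 fold changes of -2.30, -1.98 and -1.96, all past the threshold, and of -2.65, -2.30 and -2.25 without that library. The median log2 fold change in fl/fl cells was -0.86 over the ligands and -0.01 over all tested genes. Some ligand genes were hardly counted: Cxcl12, the Cxcr4 ligand, had 0 to 23 counts per library and Rarres2, which encodes chemerin, 0 to 3.

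Signalling genes downstream of the receptors went both ways. Of 33, 32 were tested, and in fl/fl cells 5 rose and 8 fell, against 7.87% of all tested genes called higher and 7.61% lower. In KO cells 1 rose and 4 fell, against 2.19% and 2.97%. Without the library labelled KO untreated replicate 1, 3 rose and 7 fell in KO cells, against 8.17% and 6.7%. Grk5 and Adrbk2 (Grk3), kinases that desensitise G-protein-coupled receptors, had log2 fold changes of -1.58 ± 0.23 and -1.32 ± 0.29 in fl/fl cells, and of -1.42 ± 0.23 and -1.12 ± 0.29 in KO cells. Pik3r6, a regulatory subunit of the G-protein-coupled PI3-kinase gamma, had -0.87 ± 0.17 in fl/fl and -1.01 ± 0.17 in KO cells. Elmo1, which links receptors to Rac activation, rose by 0.80 ± 0.19 in fl/fl and 0.78 ± 0.19 in KO cells. Without the library labelled KO untreated replicate 1 the KO values were -1.62 for Grk5, -1.37 for Adrbk2, -1.15 for Pik3r6 and 1.14 for Elmo1, all past the threshold. In fl/fl cells the Rac exchange factor Prex1 and the Src-family kinase Fgr rose by 0.54 and 1.17. The 6 genes named here passed the edgeR test in fl/fl cells at adjusted p up to 0.0335.

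**Figure D5:**
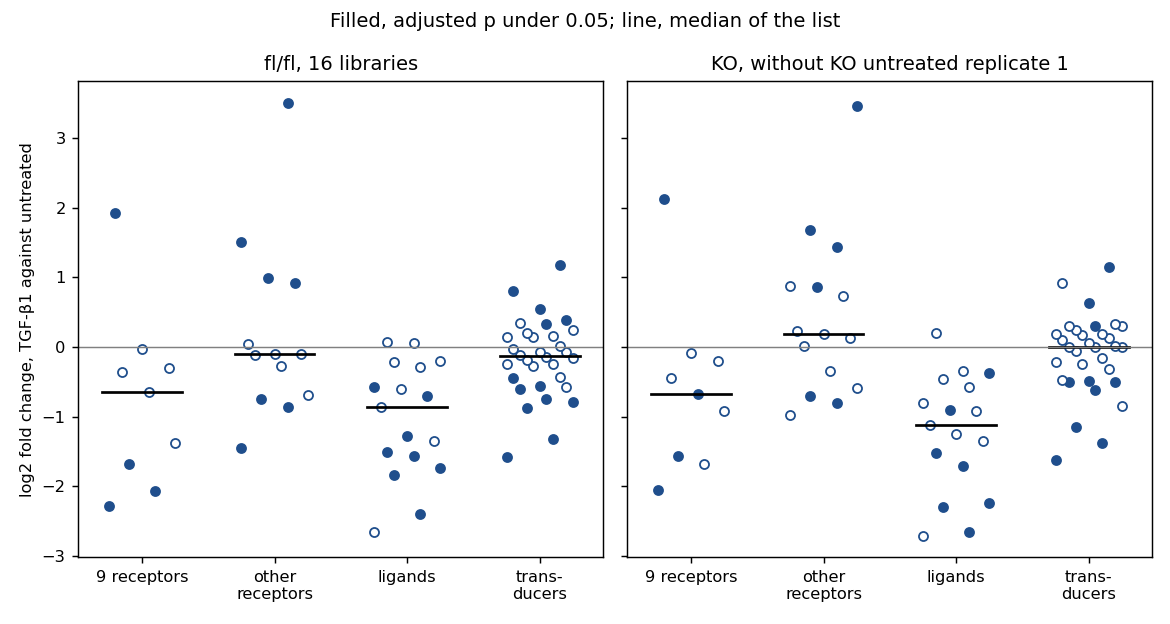
Log2 fold change with TGF-β1 of each tested gene of the 9 receptors, other chemoattractant receptors, ligands and signalling genes (transducers), in fl/fl cells and in KO cells without the library labelled KO untreated replicate 1; filled points passed an adjusted p of 0.05 and lines are list medians. Every filled ligand lies below 0, while the other lists have filled points on both sides.

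Markers of monocytes and neutrophils are given here beside the receptors that fell. The summed level of the 7 monocyte markers was 21.6 to 35.7 CPM in fl/fl untreated and 6.46 to 24.5 CPM in fl/fl TGF-β1 libraries, and 34.7 to 51.3 CPM in KO untreated replicates 2 to 4 against 17.6 to 24.1 CPM in KO TGF-β1. The fl/fl ranges overlapped, and the library labelled KO untreated replicate 1, at 20.6 CPM, lay within the range of KO TGF-β1. None of the 5 tested markers passed in fl/fl cells, Vcan and Ms4a4c leading the sum. With the replicate block within genotype Chil3 passed (log2 fold change -1.11, edgeR adjusted p = 0.0179), and without the library labelled KO untreated replicate 1 so did Vcan and Ms4a4c (both 0.0403). Fl/fl TGF-β1 replicate 4 had the lowest counts of these in its group. It had 35 for Vcan, 13 for Chil3 and 46 for Ms4a4c, against 76 to 101, 27 to 49 and 205 to 229 in the rest of that group. The block was not fitted without this library, so these calls were not checked without it. In KO cells Vcan fell without the library labelled KO untreated replicate 1 (log2 fold change -1.93, edgeR adjusted p = 0.00455). With the block it also fell with all 16 libraries (log2 fold change -1.45, edgeR adjusted p = 0.0263). Vcan had 604 counts in KO untreated replicate 2, 202 and 212 in replicates 3 and 4, and 43 to 132 in KO TGF-β1. Over the libraries of both genotypes Ly6c2, the defining gene of inflammatory monocytes, was at most 1.56 CPM, in fl/fl TGF-β1 replicate 4. The neutrophil list, mostly Mmp8, summed to 54.2 to 65.4 CPM in fl/fl untreated and 34.8 to 58.0 CPM in fl/fl TGF-β1 libraries, with Ly6g and Retnlg at 0. In KO it was 45.5 to 73.6 CPM untreated and 52.5 to 68.9 CPM with TGF-β1. The part of these cells in the fall of Ccr1, Ccr3 and Fpr1 was not tested.

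Within groups, the receptors varied together only in part. Over 15 libraries (all but the library labelled KO untreated replicate 1), the deviations of log2 CPM from the group mean had a Pearson r of 0.77 for Ccr1 with Ccr2, 0.68 for Ccr3 with Fpr2, 0.67 for Fpr1 with Fpr2 and -0.69 for Ccrl2 with Cxcr4. These values share library depth and preparation and are descriptions. By the same measure the genes most like Cxcr4 were Wdr91 (r = 0.96), Rab9 (0.96) and Mknk1 (0.95). These genes and those below were picked for the highest r among very many genes, a choice that by itself favours high values. Among those most like Ccr3 were Rbbp8 (0.97) and Klhl9 (0.96). Those most like Ccr1 were Srsf2 (0.94), Atf1 (0.92) and Bbip1 (0.90), and those most like Ccr2 were Pigm, Zc3h7a and Cfl2 (0.95, 0.94 and 0.94). For Fpr1 they were Chml, Mturn and Cpsf1 (0.89, 0.87 and 0.86), and for Fpr2 Pon3, Trim21 and Sptbn1 (0.92, 0.92 and 0.91). For Ccrl2 they were Plekha8, Rbpj and Pprc1 (0.88, 0.88 and 0.87), for Cxcr3 Kdelc2, Adck3 and Tmem237 (0.82, 0.80 and 0.79), and for Cmklr1 Rsph3b, Acvrl1 and Txnl4b (0.93, 0.89 and 0.89).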

How the data were processed

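RNA was sequenced as 150 bp pairs. The submitters' processing notes name HTSeq 0.6.1, TopHat2 2.0.9 and Cufflinks 2.1.1, beside GRCm38.p6 and mm10 as builds; strand and multi-mapping settings are not given in the sources used here. The deposited count table holds raw counts per gene, and the deposited FPKM equal the count over gene length and library total for 100% of positive values within 0.1%. Counts were scaled by TMM and filtered by filterByExpr in edgeR 4.0.16 (R 4.3.3), and a quasi-likelihood model with 4 group means was fitted to all 16 libraries, with Benjamini-Hochberg adjustment over 13080 genes at 0.05. SE is the log2 fold change over the root of F. CPM are TMM-scaled. The model was tested on simulated data. Alternatives used DESeq2 1.42.0, limma 3.58.1 on log2 of FPKM plus 0.1 or 1 computed from the deposited FPKM, no filter, a replicate block over all groups, only the compared groups, and libraries left out. DESeq2 and the compared groups without KO untreated replicate 1, the further library left out of those 15, and a replicate block within genotype, were added after seeing the data. The labels number the replicates without saying what a number shares. Deviations of log2 CPM from the group mean correlated between same-numbered untreated and TGF-β1 libraries at r = 0.123 to 0.181 in fl/fl (4 of 4 pairs over 0.1) and 0.0754 to 0.239 in KO (2 of 4; 3 of 3 without KO untreated replicate 1), and at -0.175 to 0.0216 across genotypes. Some differently numbered libraries of a genotype correlated more: r was 0.2 for fl/fl untreated replicate 1 with fl/fl TGF-β1 replicate 2, against 0.162 for the same number. Without KO untreated replicate 1, KO untreated replicate 2 had 0.204 with KO TGF-β1 replicate 1, against 0.127 for the same number. Others were lower, such as -0.169 for fl/fl untreated replicate 1 with fl/fl TGF-β1 replicate 4. With all 16 libraries the values within a genotype split by sets of numbers, replicates 1 and 2 against replicates 3 and 4. Untreated and TGF-β1 libraries of the same set had r of 0.0578 to 0.2 in fl/fl and 0.0754 to 0.239 in KO. Those of different sets had -0.216 to -0.0435 in fl/fl and -0.237 to -0.08 in KO. What a set shares is not labelled, and no fit used the sets in place of the numbers. Reading the numbers as pairs within a genotype thus comes from the data and not from the design, and these values do not single it out. Genotypes cannot be compared within such pairs.

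Genes outside the 9 were named by rule: Smad7, Pmepa1 and Skil as label checks; per list and comparison up to 3 rising and 3 falling called genes with an average log2 CPM of at least 1; marker genes that were highest or at 0; and the 3 genes most like each receptor. Cxcl12 and Rarres2 were named for their role as ligands. A gene that the rule takes may not be reported here. The receptors, lists and tests were chosen with earlier results of these data known. Sequences are RefSeq promoters; 9 of 9 receptors had a window. Of the listed genes 1 was unmatched. Bounds of 2 SE come from the fitted SE. How many of all tested genes have groups that do not overlap was not counted, so statements on overlap are descriptions.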

Additional observations from a re-analysis of the deposited data

Results flagged for a closer look

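Ccr1 in KO untreated replicate 2 stood apart from the rest of its group: it was at 8.17 CPM, against 1.58 to 2.21 CPM in the other 3 libraries. The gap to its nearest neighbour was 0.903 of the group's whole range, above Dixon's limit for 4 samples. Of the 36 groups of 4 values examined (9 receptors in 4 groups) this was the only such value, and chance alone gives about 1 in 20. In the same library Ccrl2, at 27.6 CPM, and Ccr2, at 83.4 CPM, were the highest of their group, and Cxcr4, at 46.4 CPM, was the lowest.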

How the results depend on the processing

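No receptor's called fold change changed sign in any comparison or setting run. Cxcr4 and Ccr3 in fl/fl cells passed in 26 of 26 settings; the number of receptors called in fl/fl cells was 4, 2 without fl/fl untreated replicate 1 or 2 or fl/fl TGF-β1 replicate 1 or 4, and at most 5 on leaving out libraries. In KO cells 2 receptors were called, and 0 to 5 on leaving out libraries; the count was 1 without the filter on low counts, 1 by limma on log2(FPKM + 0.1), 0 with only the groups compared (4 without the library labelled KO untreated replicate 1) and 5 by DESeq2 without that library. Over all genes the KO count was 676, with 81 (without KO TGF-β1 replicate 3) to 1984 (without the library labelled KO untreated replicate 1) on leaving out 1 library, 81 to 438 without any other KO library, fl/fl untreated replicate 2, 3 or 4 or fl/fl TGF-β1 replicate 3, and up to 2510 on leaving out another besides it, 446 without the filter, 0 with only the groups compared (1830 without that library), and 1093 and 2332 by DESeq2 with and without it. The fl/fl count over all genes, 2025 (1030 higher, 995 lower), ranged from 1388 to 2616 on leaving out libraries, and by limma on log2(FPKM + 0.1) the split was 877 higher and 1355 lower. KO against fl/fl called 6 genes untreated (4 to 21 on leaving out libraries, with 13 without the library labelled KO untreated replicate 1 and 10 without fl/fl TGF-β1 replicate 4 or KO TGF-β1 replicate 1; 10 without the filter, 61 by DESeq2 and 72 without the library labelled KO untreated replicate 1) and 5 with TGF-β1 (4 to 13; 24 and 46 by DESeq2); the interaction called 0, and 1 by DESeq2. The cause of these shifts was not tested. With the replicate block within genotype the receptor counts were 6 in fl/fl and 4 in KO cells with and without that library, and the counts over all genes 2194 and 994 (2818 and 2264 without it); Ccr2 and Fpr2 in fl/fl and, with all 16 libraries, Cxcr4 and Ccrl2 in KO cells became called, and the block changed no other call on a receptor, but with all 16 libraries 2 ligands fell in KO cells in place of 6 (7 without that library). The planned block, which also pairs numbers across genotypes, gave 0 receptors and 662 genes in KO cells (4 and 1738 without that library), and Ccr2 passed in fl/fl cells (adjusted p = 0.0299). Counts of 5 to 47 behind Ccr1 and 10 to 31 behind Ccr3 in fl/fl TGF-β1 libraries limit the precision of their folds.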
